A study of Mus musculus with 8 samples.

Results

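The 10 genes described here encode vascular adhesion molecules and proteins of acute inflammation, and they are 10 of the 24054 genes in the deposited table of soleus (SOL) muscle. They are Selp, Sele, Icam1, Vcam1, S100a8, S100a9, Lcn2, Il1r1, Osmr and Cebpb, and all 10 were found in the table by symbol. They were chosen from their values in these same mice, above all their high values in MI4KO mouse 3, so their levels in that mouse and their differences between the groups are given as a description and not as a test. RNA was sequenced from SOL of 4 MI4KO mice and 4 flox mice, 1 stranded poly(A) library per mouse. MI4KO mice carry floxed Irf4 alleles and a Cre recombinase driven from Myl1, which is active in skeletal muscle fibers, and flox mice carry the floxed alleles as controls. All 8 were male C57BL/6 mice, and the labels record a high-fat diet for both groups. The study's text does not name the diet or the age of the sequenced animals. It reports body weight, glucose tolerance and insulin tolerance of MI4KO mice on chow and describes its high-fat diet work as ongoing. Because Cre is selective for muscle fibers, endothelial cells, blood cells and other cells within the muscle keep their Irf4 alleles intact in this design, and whole muscle was sequenced. Mice are numbered 1 to 4 within each group in ascending order of the animal numbers in their labels.

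Leukocytes leave the blood in steps. Selectins on activated endothelium catch rolling cells, integrins on the leukocyte then bind ICAM-1 and VCAM-1 and stop it, and junction proteins let it pass between endothelial cells. Interleukin-1, tumor necrosis factor and oncostatin M are known to raise the adhesion molecules through NF-kB and STAT3, C/EBP factors act on acute phase genes, and neutrophils carry S100A8 and S100A9 as abundant cytosolic proteins. In bulk muscle RNA, a lower or higher number of cells of a type cannot be told apart from a change of RNA per cell.

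The starts of the genes with the largest ratios between the groups are shown first, so that the motifs near them can be read. Sequences are from RefSeq on GRCm38.p6, 5′ to 3′ on the strand of the gene, and cover the 250 bases before the RefSeq transcription start. Capitals mark letters matched by 1 of the 7 motifs searched on both strands. The region of Selp lies at chr1:164115014-164115263 on the plus strand, that of Sele at chr1:164047984-164048233 on the plus strand, that of Icam1 at chr9:21015690-21015939 on the plus strand and that of S100a9 at chr3:90695722-90695971 on the minus strand. For S100a8 and Lcn2, whose GENCODE transcripts include exons in the same stretch, only 30 bases around a motif are given, at chr3:90669029-90669058 on the plus strand for the TATA motif of S100a8, and at chr2:32387937-32387966 and chr2:32387872-32387901 on the minus strand for the C/EBP and glucocorticoid response element (GRE) motifs of Lcn2.
Selp: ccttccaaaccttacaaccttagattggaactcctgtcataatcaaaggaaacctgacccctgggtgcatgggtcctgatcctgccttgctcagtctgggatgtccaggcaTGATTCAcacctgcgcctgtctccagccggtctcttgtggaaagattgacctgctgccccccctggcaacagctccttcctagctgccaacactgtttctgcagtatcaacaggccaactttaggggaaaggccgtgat
Sele: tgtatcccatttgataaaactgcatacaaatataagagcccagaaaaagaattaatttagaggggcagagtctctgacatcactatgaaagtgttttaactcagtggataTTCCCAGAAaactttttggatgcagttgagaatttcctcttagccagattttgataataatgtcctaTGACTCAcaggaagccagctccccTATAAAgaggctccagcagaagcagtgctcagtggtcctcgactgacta
Icam1: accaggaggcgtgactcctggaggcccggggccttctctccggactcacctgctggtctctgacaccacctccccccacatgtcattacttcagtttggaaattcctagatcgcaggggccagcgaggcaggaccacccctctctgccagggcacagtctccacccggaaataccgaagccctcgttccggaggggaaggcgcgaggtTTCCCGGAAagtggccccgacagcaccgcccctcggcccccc
S100a9: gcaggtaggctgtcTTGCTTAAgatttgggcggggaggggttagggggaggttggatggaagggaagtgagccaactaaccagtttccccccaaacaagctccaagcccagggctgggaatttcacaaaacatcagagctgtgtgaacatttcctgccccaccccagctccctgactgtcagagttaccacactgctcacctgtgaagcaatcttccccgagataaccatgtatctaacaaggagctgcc
S100a8, TATA: caagctttcctcTATAAAagcagctgacac
Lcn2, C/EBP: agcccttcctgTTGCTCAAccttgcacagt
Lcn2, GRE: aagtatttcaACAGAATGTactggcaatta

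In these windows Selp held an AP-1 motif that began 139 bases before the start. Sele held a STAT motif at 140 bases, an AP-1 motif at 73 bases and a TATA motif at 49 bases before its start. Icam1 held a STAT motif 42 bases before its start. S100a9 held a C/EBP motif 236 bases before its start, and Lcn2 held one at 216 bases and a GRE motif at 152 bases. S100a8 held a TATA motif 30 bases before its start. The search covered 300 bases per start, of which 50 follow the start, in 10 windows of 9 members, and Vcam1 was not analysed here. The motif with the letters TTGCNNAA (C/EBP) was in windows of 3 of the 9 members (Il1r1, Lcn2 and S100a9) and in 10.8% of 32817 mouse windows. TTCNNNGAA (STAT) was found in 2 members and in 8.29% of windows, TGANTCA (AP-1) in 3 members (Osmr, Sele and Selp) and in 7.81%, and ACANNNTGT (GRE) in 2 members and in 6.85%. The letters TATAAA were found in 5 members and in 13.6% of windows. Those of Cebpb, Icam1 and S100a9 began at or after the start, as did the AP-1 match of Osmr and the GRE match of S100a8. The NF-kB motif was found in 1 member, at the second start of Il1r1, and in 4.5% of windows. The interferon-stimulated response element was found in 0 members and in 3.43% of windows. No match says only that these letters are not in the window. The NF-kB motif was searched only in a strict form with GGG at 1 end, and sites of other forms were not counted. No 2 of these 16 matches in member windows overlapped.

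**Figure D1:**
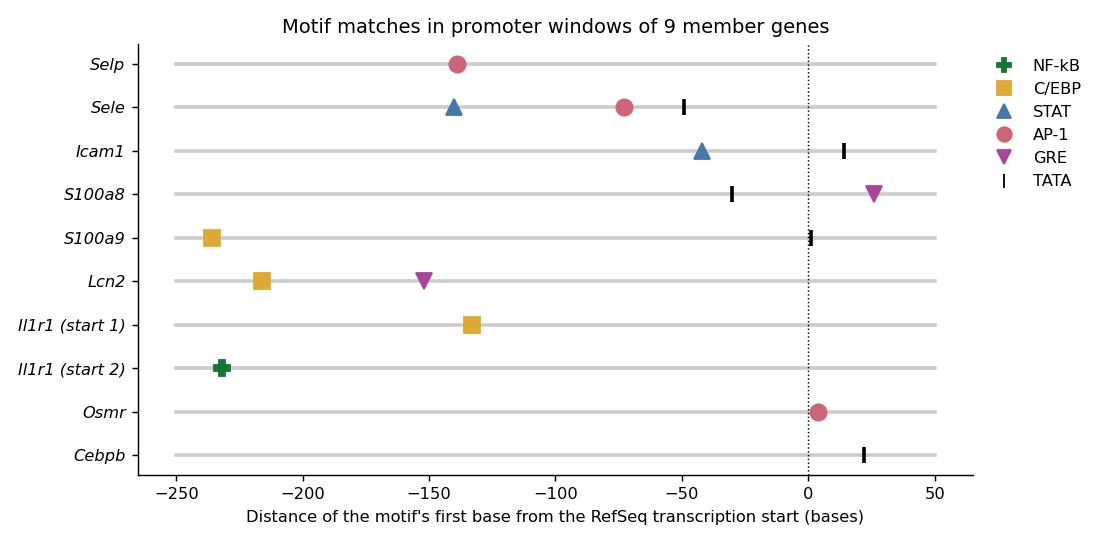
Positions of motif matches on either strand in the RefSeq promoter windows of 9 members, as the distance of the first base from the transcription start in bases (grey lines run from 250 before to 50 after the start, and the dotted line is the start). Each symbol is 1 match, Il1r1 has 2 starts, and the AP-1 symbol of Selp lies 139 bases and that of Sele 73 bases before the start.

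Values are TMM-normalized CPM as the authors deposited them, that is, counts per 1e6 reads multiplied by a scale that TMM gives each library. Depth was between 13417512 and 16384565 reads per mouse. The reads behind each value could be counted, because 100% of the values above 0 were multiples of 1 step per mouse. Irf4, the deleted gene, was at 0.686, 1.46, 1.58 and 1.68 in flox mice 1 to 4 and at 0.725, 0.840, 0.266 and 1.03 in MI4KO mice 1 to 4. The groups overlapped through flox mouse 1, and MI4KO mouse 3 had the lowest value of Irf4 of all mice, from 4 reads. Muscle fiber markers summed to between 118944 and 140473 in all 8 mice. Liver markers summed to 232.4 in flox mouse 1 and to between 10.4 and 23.2 in the other mice, and 20 of the 21 measured were highest in that mouse. The highest of the 8 values lay in MI4KO mouse 3 for 30.9% of the 11865 genes tested, and that mouse was at least 1.5-fold above every other mouse for 184 of them, against 3 to 15 genes for any other mouse.

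The 10 members were all highest in MI4KO mouse 3, as were 24.7% of all genes with a read, and 8 of them were at least 1.5-fold above every other mouse there. Selp, Icam1, S100a9, S100a8, Sele and Lcn2 stood furthest above the others, and Osmr and Cebpb were 1.54-fold and 1.71-fold above the next highest mouse. Vcam1 and Il1r1 were the 2 with the smallest step. The counting intervals in MI4KO mouse 3 and the next highest mouse overlapped for 3 members, Vcam1, Il1r1 and Sele (13 reads against 2). The same height above every other mouse was met by 1.55% of the genes tested and by 3.03% of the 17968 genes with a read. These values chose the members, so nothing is read from the counts.

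**Figure D2:**
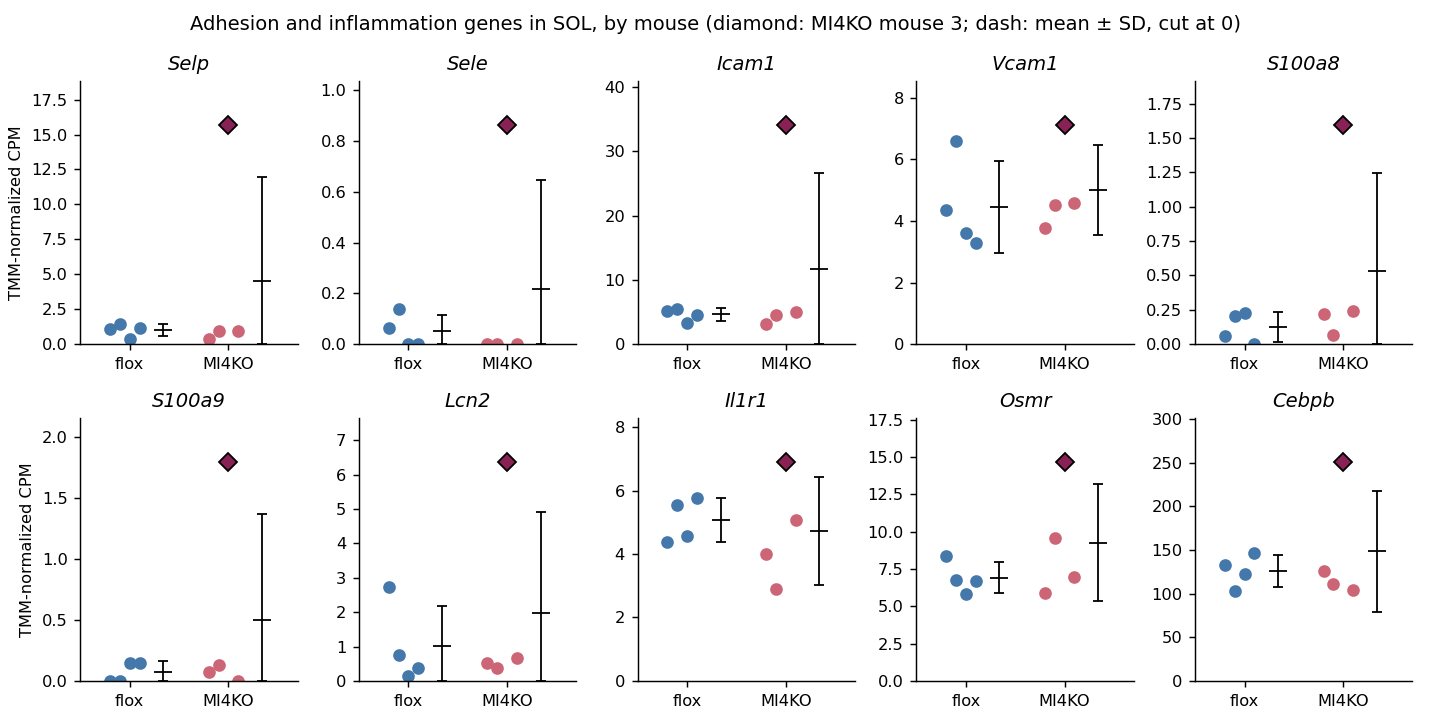
TMM-normalized CPM of the 10 members in SOL, by mouse (linear axes from 0, points are mice 1 to 4 from left to right in each group, the diamond is MI4KO mouse 3, and the dash with bars is the mean ± SD of 4 mice, with the lower bar cut at 0). The diamond is the highest point in each of the 10 panels, at 15.7 for Selp against at most 1.46 in the 7 other mice.

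The selectins are encoded side by side on chromosome 1 of GRCm38, Sele from 164048234 to 164057677 and Selp from 164115264 to 164150026, both on the plus strand (GENCODE M21). Selp encodes P-selectin, which endothelial cells and platelets store in granules and bring to their surface on activation. Its values were 1.06, 1.46, 0.375 and 1.17 in flox mice 1 to 4, and 0.363, 0.970, 15.7 and 0.967 in MI4KO mice 1 to 4. The other MI4KO mice lay within or just below the range of the flox mice, and MI4KO mouse 3 alone was high, with 236 reads against 5 to 21. That was 10.8-fold above flox mouse 2, the next highest (95% interval from counting 6.88 to 17.7). Group means of Selp were 1.01 ± 0.458 (SD, n = 4) in flox and 4.50 ± 7.47 (SD, n = 4) in MI4KO mice, and 0.766 ± 0.350 (SD, n = 3) without MI4KO mouse 3. The ratio of means went from 4.43 to 0.756 when that mouse was left out, which turned its direction. Selp also reached the filter for the fit, which asked for 1 CPM or more in 4 or more mice, only through that mouse.

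Sele encodes E-selectin, which endothelial cells make anew on activation. It was at 0.0623, 0.139, 0 and 0 in flox mice 1 to 4 and at 0.864 in MI4KO mouse 3, with no read in MI4KO mice 1, 2 and 4. These values rest on 3 reads in flox mice together and 13 reads in MI4KO mouse 3. The ratio of means of Sele was 4.30, and the ratio of pooled reads had a counting interval from 1.13 to 22.4. That interval leaves out the spread between mice, and all MI4KO reads were those of mouse 3, so no group difference is read from it. Without MI4KO mouse 3 every library had at most 2 reads, below the 3 reads taken as detected, and no ratio is given.

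Icam1 and Vcam1 encode the immunoglobulin-type ligands of leukocyte integrins. Icam1, on chromosome 9 from 21015985 to 21028817 on the plus strand, encodes the ligand of the beta-2 integrins. It was at 5.17, 5.48, 3.30 and 4.59 in flox mice and at 3.12, 4.53, 34.1 and 5.02 in MI4KO mice 1 to 4. MI4KO mouse 3 was high, with 513 reads against 43 to 83, and the other 3 MI4KO mice overlapped the flox mice. Means were 4.64 ± 0.964 (SD, n = 4) in flox, 11.7 ± 14.96 (SD, n = 4) in MI4KO and 4.22 ± 0.985 (SD, n = 3) in MI4KO mice without mouse 3. The ratio of means of Icam1 went from 2.52 to 0.910 without that mouse, again to the other side of 1.

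Vcam1 encodes the ligand of integrin alpha-4 beta-1 and lies on chromosome 3 from 116109949 to 116129688 on the minus strand. It was at 4.36, 6.59, 3.60 and 3.28 in flox mice and at 3.77, 4.53, 7.11 and 4.59 in MI4KO mice 1 to 4. Unlike Icam1, Vcam1 had a flox mouse close to MI4KO mouse 3, flox mouse 2 at 95 reads against 107. The counting intervals of Vcam1 in these mice were 5.33 to 8.06 and 5.83 to 8.60. For Vcam1 the ratio of means was 1.12 with and 0.964 without MI4KO mouse 3. When values were scaled to library size in place of TMM, 9 of the 10 members were highest in MI4KO mouse 3, and Vcam1 was the exception.

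S100a8 and S100a9 encode the subunits of calprotectin, which neutrophils and monocytes carry, and lie on chromosome 3 from 90668978 to 90670035 on the plus strand and from 90692632 to 90695721 on the minus strand. S100a8 was at 0.0623, 0.208, 0.225 and 0 in flox mice and at 0.218, 0.0646, 1.60 and 0.242 in MI4KO mice 1 to 4. S100a9 was at 0, 0, 0.150 and 0.146 in flox mice and at 0.0725, 0.129, 1.79 and 0 in MI4KO mice 1 to 4. Both were near the limit of detection outside MI4KO mouse 3, where S100a8 had 24 reads and S100a9 had 27. Read numbers in the other mice were 0 to 4 for S100a8 and 0 to 2 for S100a9. The ratio of pooled reads between the groups was 4.32 for S100a8 (counting interval 1.87 to 11.6) and 7.09 for S100a9 (2.50 to 27.7). These intervals leave out the spread between mice, and most of the MI4KO reads were those of mouse 3, so no group difference is read from them. Without MI4KO mouse 3 the ratio of means of S100a8 was 1.41, and S100a9 had 3 reads in the other MI4KO mice and 4 in flox mice.

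Lcn2 encodes lipocalin-2, a siderophore-binding acute phase protein that liver, epithelia and neutrophils make, and lies on chromosome 2 from 32384633 to 32388252 on the minus strand. It was at 2.74, 0.763, 0.150 and 0.364 in flox mice and at 0.508, 0.388, 6.38 and 0.665 in MI4KO mice 1 to 4. Lcn2 had a second high mouse, flox mouse 1 with 44 reads, below the 96 reads of MI4KO mouse 3. The MI4KO mice other than mouse 3 lay within the range of the flox mice. Flox mouse 1 is also the mouse with the high sum of liver markers given above, and the part of liver RNA in its Lcn2 value was not tested. For Lcn2 the ratio of means was 1.98 with MI4KO mouse 3 and 0.517 without it.

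Il1r1 and Osmr encode the signaling receptor of interleukin-1 and the receptor subunit of oncostatin M. Il1r1, on chromosome 1 from 40225080 to 40317257 on the plus strand, was at 4.36, 5.55, 4.58 and 5.76 in flox mice and at 3.99, 2.91, 6.91 and 5.08 in MI4KO mice 1 to 4. Its highest and its lowest value both lay in the MI4KO group, in mice 3 and 2. Il1r1 was the 1 member whose ratio of means was below 1 with all mice, 0.933, and it was 0.789 without MI4KO mouse 3. Osmr, on chromosome 15 from 6813577 to 6874969 on the minus strand, was at 8.35, 6.73, 5.85 and 6.70 in flox mice and at 5.88, 9.57, 14.7 and 6.95 in MI4KO mice 1 to 4. MI4KO mouse 2 was the next highest mouse for Osmr, above every flox mouse. With all mice the ratio of means of Osmr was 1.34, and it was 1.08 without MI4KO mouse 3.

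Cebpb encodes C/EBP-beta, a transcription factor of acute phase and myeloid genes, in a single exon on chromosome 2 from 167688915 to 167690418 on the plus strand. It was at 132.9, 103.4, 121.9 and 146.5 in flox mice and at 125.9, 111.5, 251.2 and 104.5 in MI4KO mice 1 to 4. With 3779 reads in MI4KO mouse 3 it was the member with the most reads, and counting error was small beside the difference (243.3 to 259.4 there, 140.2 to 153.1 in flox mouse 4). Group means of Cebpb were 126.2 ± 18.2 (SD, n = 4) in flox and 148.3 ± 69.2 (SD, n = 4) in MI4KO mice. Its ratio of means was 1.18 with MI4KO mouse 3 and 0.903 without it.

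The levels of the members spanned a wide range when given per kilobase of the longest coding transcript in GENCODE M21. In flox mice Cebpb was at 83.9 ± 12.1 (SD, n = 4) CPM per kilobase, far above Icam1 at 1.83 ± 0.380 (SD, n = 4). Vcam1 at 1.29, Osmr at 1.26, Lcn2 at 1.10 and Il1r1 at 0.870 CPM per kilobase followed Icam1, with SD of 0.430, 0.190, 1.30 and 0.119. Each step between neighbors from Vcam1 to Il1r1 lay within the larger SD of the pair. Osmr was above Il1r1 by more than either of their SD. Selp at 0.295, S100a8 at 0.255 and S100a9 at 0.142 came next, with SD of 0.133, 0.227 and 0.165 that also span the steps between them, and Sele was lowest at 0.0173 CPM per kilobase. In MI4KO mouse 3 the order of the levels per kilobase was Cebpb (167.0), Icam1 (13.5), Lcn2 (6.97), Selp (4.56), S100a9 (3.46), S100a8 (3.28), Osmr (2.68), Vcam1 (2.05), Il1r1 (1.19) and Sele (0.297). Selp thus stood above Osmr, Vcam1 and Il1r1 per kilobase in MI4KO mouse 3 and below all of them in flox mice.

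**Figure D3:**
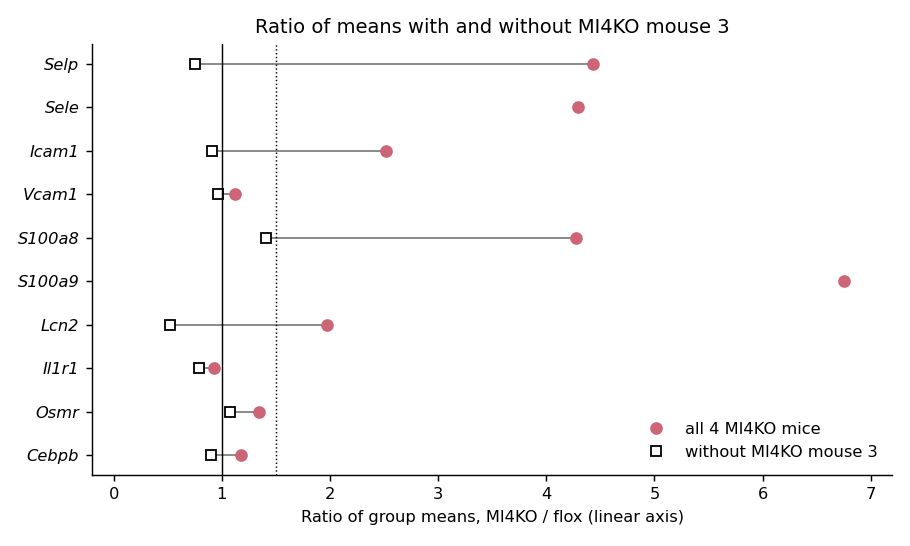
Ratio of the MI4KO mean to the flox mean of each member on a linear axis, with all 4 MI4KO mice (filled circles) and without MI4KO mouse 3 (open squares), the solid line at 1 and the dotted line at 1.5. Circles reach 6.75 for S100a9 and squares lie between 0.517 and 1.41. Sele and S100a9 have no square because no library other than that of MI4KO mouse 3 had more than 3 reads.

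MI4KO and flox values overlapped for all 10 members, with and without MI4KO mouse 3. Of the genes tested, which include 6 of the members, 2.07% did not overlap with all mice. No such share was taken without MI4KO mouse 3. With all mice the ratio of means was at least 1.5 for 6 members, and the median over the 10 was 2.25. A ratio of at least 1.5 was met by 9.12% of all genes with a read, and by 0.489% of the genes tested. The members were chosen with MI4KO mouse 3 in view, so nothing is read from these numbers. Without MI4KO mouse 3, no member reached 1.5, where 8.82% of genes with a read did. Of the 8 members with a ratio then, 6 were below 1 and 2 were above it, with a median of 0.907.

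A limma fit of the groups covered the 11865 genes tested, on log2(value + 1), a scale that understates the change of low genes. The filter kept 6 members (Selp, Icam1, Vcam1, Il1r1, Osmr and Cebpb) and left out 4 (Sele, S100a8, S100a9 and Lcn2). With limits of 1.5-fold in either direction and an unadjusted p of 0.05, 0 of the 6 members were called, and 0.219% of all genes tested were (26 genes, 0.059% higher and 0.16% lower in MI4KO mice). At that unadjusted p alone, 0 of the 6 members and 3.36% of all genes tested passed. No gene at all had an adjusted p under 0.05 in limma, edgeR or DESeq2 (which gave no p for Selp or Icam1), and 399 had an unadjusted p under 0.05 in limma. Differences on the log2 scale were 0.64 (standard error 0.60) for Selp, 0.58 (0.50) for Icam1, 0.31 (0.21) for Osmr, 0.15 (0.22) for Cebpb, 0.14 (0.20) for Vcam1 and -0.12 (0.19) for Il1r1. Without MI4KO mouse 3 they were -0.18 for Selp, -0.11 for Icam1, 0.08 for Osmr, -0.14 for Cebpb, -0.01 for Vcam1 and -0.30 for Il1r1, so that the sign turned for Selp, Icam1, Cebpb and Vcam1. The median over the 6 was 0.23 with all mice, against -0.01 over all genes tested. The members were chosen with MI4KO mouse 3 in view and Selp passed the filter only through it, so nothing is read from these medians. The study, which used edgeR with the same limits on all mice, lists Selp among the genes changed in both SOL and gastrocnemius muscle. Its gastrocnemius comparison was of MI4KO mice with mice that overexpress IRF4, without flox mice. In edgeR on the recovered SOL reads, Selp had a log2 fold change of 2.09 and an unadjusted p of 0.0608, and so was not called. The study's discussion states that it noticed no changes of inflammatory genes in muscle without IRF4. Irf4 had a log2 fold change of -0.45 in limma (standard error 0.20, unadjusted p = 0.0402, adjusted p = 1.0).

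**Figure D4:**
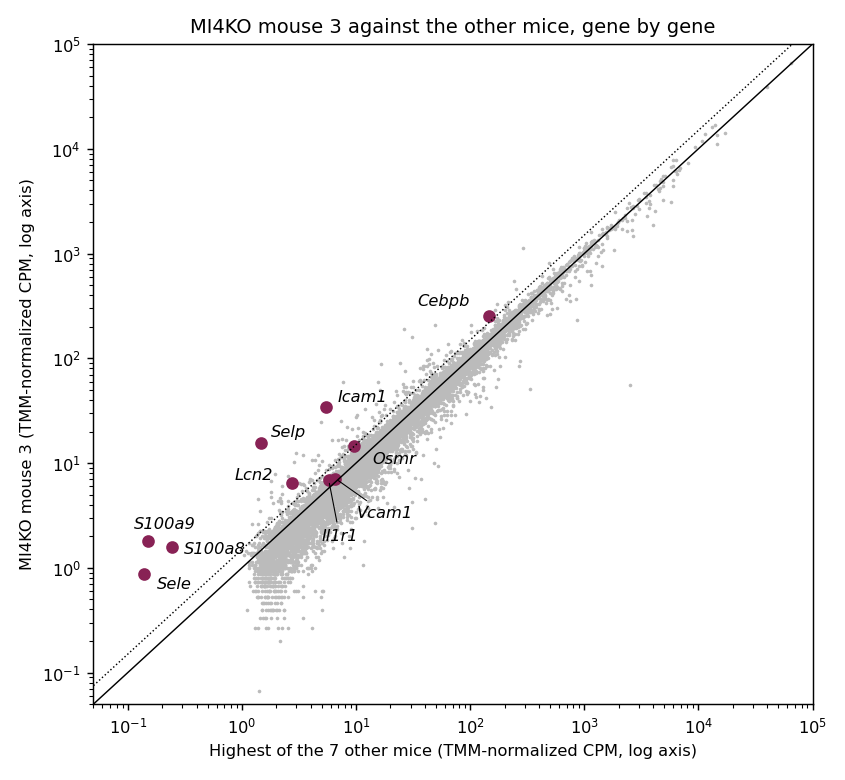
TMM-normalized CPM in MI4KO mouse 3 against the highest of the 7 other mice on log axes, for the genes tested (grey points) and the 10 members (large points), with a solid line of equal values and a dotted line at 1.5-fold. Selp (15.7 against 1.46) and Icam1 (34.1 against 5.48) lie well above the dotted line, and Vcam1 and Il1r1 lie just above the solid line.

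Other genes of leukocyte adhesion were called neither way. Of 30 selectin ligands, integrins and junction genes, 20 were tested and 0 were called, and their median log2 fold change was -0.10. Itgb2, Icam2, Cdh5 and Jam2, 4 of the 20, had an unadjusted p under 0.05 in limma, where 3.36% of all genes tested had one. Itgb2, the beta-2 integrin chain that binds ICAM-1, was at 1.25, 0.555, 0.450 and 0.874 in flox mice and at 1.60, 1.55, 1.93 and 1.03 in MI4KO mice 1 to 4. Its log2 fold change in limma was 0.51 (standard error 0.18, unadjusted p = 0.0141, adjusted p = 1.0) and 0.44 without MI4KO mouse 3, and the groups overlapped through flox mouse 1 and MI4KO mouse 4. Icam2, which resting endothelium carries, was lower in every MI4KO mouse (5.80 to 7.43) than in every flox mouse (7.65 to 9.78), with a log2 fold change of -0.30 and an unadjusted p of 0.0226 (adjusted p = 1.0, limma). Ackr1, the chemokine-binding receptor of venules, reached 6.78 in MI4KO mouse 3 against 0.998 to 1.80 elsewhere. Of the 29 genes of this list with a read 7 were highest in MI4KO mouse 3, where 24.7% of all genes with a read were, and 3 were at least 1.5-fold above every other mouse, where 3.03% were.

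Endothelial markers as a whole did not stand apart in MI4KO mouse 3. The summed level of the 20 markers was 790.1 there, 703.4 to 836.3 in flox mice and 547.7 to 740.0 in the other MI4KO mice. All 20 were tested and 0 were called, with a median log2 fold change of -0.15. An unadjusted p under 0.05 in limma was met by 3 of the 20 and by 3.36% of all genes tested. Cdh5, which encodes VE-cadherin, Kdr, the main VEGF receptor, and the endothelial factor Erg had log2 fold changes of -0.29, -0.37 and -0.39 (unadjusted p = 0.0281, 0.0239 and 0.00817, adjusted p = 1.0 for each, limma). Without MI4KO mouse 3 these log2 fold changes were -0.32, -0.27 and -0.32, so the lower values were not particular to that mouse. In MI4KO mouse 3, Kdr was at 39.8 against 57.0 to 67.2 in flox mice, and Erg was at 7.78 against 11.3 to 14.6 in flox mice. Pecam1 and Esam were instead highest there, at 122.8 against 73.1 to 108.4 and at 40.8 against 26.2 to 35.6 in the other mice. Of the 20 markers 8 were highest in MI4KO mouse 3, where 30.9% of all genes tested were. Ackr1 was the 1 that exceeded every other mouse by 1.5-fold, where 1.55% of all genes tested did.

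Of 26 neutrophil markers, 24 were in the table, 7 were at 0 in all 8 mice and 3 were tested (Lrg1, Itgam and Cxcr2). The others had at most 17 reads in any mouse. Of the 17 with a read 10 were highest in MI4KO mouse 3, against 24.7% of all genes with a read, and 9 were at least 1.5-fold above every other mouse, against 3.03%. Their summed level was 61.3 in MI4KO mouse 3, 25.3 to 30.8 in flox mice and 18.8 to 27.9 in the other MI4KO mice. Most of this was Lrg1, also an acute phase gene of endothelium, at 52.7 against 14.9 to 26.5. Without Lrg1 the sum was 8.58 in MI4KO mouse 3 against 2.48 to 4.30 in the other mice. Retnlg and Chil3 had 13 and 17 reads in MI4KO mouse 3 and at most 2 in any other mouse, and Mmp8 had 7 reads against at most 2. The granule genes Mpo and Elane had no read in any mouse, and Ngp, Camp and Ltf had at most 2 reads in any mouse. The part of neutrophil RNA in the values of S100a8, S100a9 and Lcn2 was not tested. Platelet markers, whose cells also carry P-selectin, summed to 11.5 in MI4KO mouse 3 and to 6.89 to 10.7 in the others, and 5 of 14 were highest there, 1 of them by 1.5-fold. Macrophage and monocyte markers summed to 77.1 against 55.4 to 70.8, with 5 of 15 highest there, 1 of them by 1.5-fold, and their part was not tested either.

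**Figure D5:**
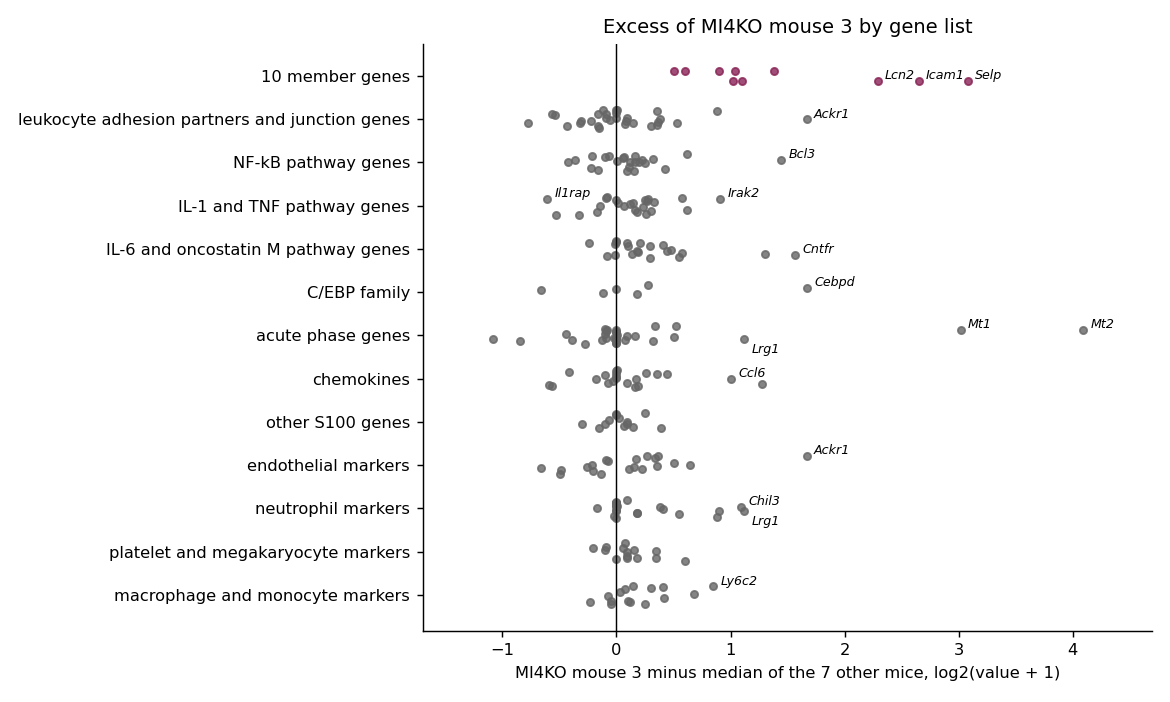
Difference between MI4KO mouse 3 and the median of the 7 other mice on the log2(value + 1) scale, 1 point per gene, for the members (top row) and 12 lists (vertical jitter has no meaning). Selp at 3.08 and Icam1 at 2.65 lie furthest right among the members, while most list genes lie near 0, with Mt2 and Mt1 furthest right.

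Upstream of the members, the cytokine genes themselves were at or near 0. Osm had no read in any mouse, Il1a and Tnf had none in MI4KO mouse 3, Il1b had 2 reads there and Il6 had 1. At most 2 reads fell on any of these genes in another mouse, so a difference was not detectable at this depth. Of 24 genes of interleukin-1 and TNF signaling, 17 were tested and 0 called, with a median log2 fold change of 0.04. Highest in MI4KO mouse 3 were 11 of the 24, where 24.7% of all genes with a read were. By 1.5-fold this held for 2 of them, where it held for 3.03% of all genes with a read. Irak2, a kinase of the interleukin-1 receptor, was at 11.3 in MI4KO mouse 3 against 4.81 to 7.43, whereas Il1rap, the second chain of that receptor, was at 0.997 there against 1.55 to 2.85. Of 21 genes of interleukin-6 and oncostatin M signaling, 16 were tested and 0 called (median 0.09). Of the 20 with a read 10 were highest in MI4KO mouse 3, and of the 16 tested 9 were, where 30.9% of all genes tested were. Il6st, the signaling chain that pairs with Osmr, was at 184.7 in MI4KO mouse 3 against 199.1 to 232.1 in the others, and so was lowest there. Il6ra at 12.2 against 3.41 to 7.67 and Cntfr at 10.2 against 1.88 to 2.87 were the 2 receptors of this list that stood 1.5-fold above every other mouse there.

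Of 23 NF-kB pathway genes 19 were tested and 0 called (median log2 fold change -0.05). Highest in MI4KO mouse 3 were 5 of the 23, where 24.7% of all genes with a read were. By 1.5-fold this held for 1 of them, where it held for 3.03% of all genes with a read. Bcl3, an atypical inhibitor and co-activator of NF-kB, was at 5.25 in MI4KO mouse 3 against 0.729 to 1.81, and Nfkbia, which NF-kB induces, was at 53.4 against 27.4 to 51.1. Of the 6 other C/EBP genes 5 were tested and 0 called, and Cebpd was at 56.6 in MI4KO mouse 3 against 11.4 to 26.0. Of 31 acute phase genes 13 were tested and 0 called (median -0.10), and 19 of the 31 were highest in flox mouse 1. Ptx3 was the 1 with an unadjusted p under 0.05 in limma (lower in MI4KO mice), where 3.36% of all genes tested had one. Another 6 of the 31 were highest in MI4KO mouse 3, 4 of them by 1.5-fold, and the summed level of the list was 401.2 there against 122.6 to 294.3 in the other mice. Haptoglobin (Hp) was at 32.8 in flox mouse 1 and at 7.18 in MI4KO mouse 3. Most of the sum of 401.2 in MI4KO mouse 3 was Mt1 and Mt2, which encode metallothioneins. They were at 190.7 and 59.6 there against 17.8 to 26.3 and 1.67 to 7.63 in the other mice, and reads of such similar genes are uncertain. Of 21 chemokines 8 were tested and 0 called, and Ccl6 and Ccl9 were at 5.12 and 6.25 in MI4KO mouse 3 against 0.975 to 2.26 and 1.89 to 3.30. Of the 13 other S100 genes 8 were tested and 0 called, and none stood 1.5-fold above every other mouse. Cyp2e1, a liver gene, was the 1 gene called among all these lists, with a log2 fold change of -0.96 (standard error 0.37, unadjusted p = 0.0223 and adjusted p = 1.0 in limma), and without flox mouse 1, the mouse with the high sum of liver markers, it was -0.47.

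The genes whose pattern over the 8 mice was most like the mean of the standardized members were Alpl, Slc4a7, Cdkn1a, Rxrg, Lrrc30, Plekhf1, Slc7a8, Mt1, Gpt2 and Fkbp11, with Pearson's r between 0.97 and 0.98 over 11859 genes compared. That mean used the 7 members that averaged 1 CPM or more, and its values were 2.04 in MI4KO mouse 3 and -0.64 to 0.05 elsewhere, so that these correlations rest on 1 mouse. Cdkn1a, a cell cycle inhibitor, was at 49.9 in MI4KO mouse 3 against 12.5 to 16.2, and Slc7a8, an amino acid transporter, was at 12.4 against 1.60 to 2.96. Over the 7 other mice the 10 genes most like the members were led by Ankrd26, Dak and Fn3k (r = 0.97, 0.96 and 0.96), and 0 genes were in both sets of 10.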

How the data were processed

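SOL RNA of 4 MI4KO and 4 flox mice was analysed. Per the submitters' processing notes and the study's methods, the authors demultiplexed single reads of 50 bases with bcl2fastq 2.17, mapped them to UCSC transcripts (mm10) with Bowtie2 2.1.0, estimated gene expression with RSEM 1.2.15 and normalized the libraries by TMM (trimmed mean of M-values). The signal as deposited is 1 TMM-normalized CPM value per gene and mouse. The columns sum to between 917785 and 1089208, so values are not shares of a fixed total. The authors' own columns of fold change, p-value and FDR hold their comparison and were not used. Reads were counted back from the values, each divided by the smallest step of its mouse (100% of non-zero values whole, tolerance 0.02 reads). In a library 3 reads were taken as detected and equal values of 0.181 to 0.225, and intervals and floors cover counting error only. Of 24054 rows, 6086 had no read and 27 symbols had become dates.

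The members and gene lists were chosen with earlier results of these data known. Groups were compared with limma 3.58.1 (R 4.3.3) with a mean-variance trend on log2(value + 1), for genes that reached 1 CPM in 4 or more of the 8 mice, with Benjamini-Hochberg adjustment over all genes tested, and the fit was tested on simulated data. The limits, a fold of 1.5 and an unadjusted p of 0.05, are those of the study. Intervals of single values are exact Poisson intervals at 95%, those of ratios exact conditional intervals. Alternatives were another pseudocount (0.1), no filter, median-of-ratios or library-size scaling, limma without trend or robust, a covariate for the range of the animal numbers, each mouse left out, and edgeR 4.0.16 and DESeq2 1.42.0 on the recovered reads. Another scaling moved the median log2 fold change of all genes from -0.01 to at most 0.03. Positions are from GENCODE M21 on GRCm38 by symbol, and promoters from RefSeq on GRCm38.p6 (9 of 10 members matched). Motifs were searched with Python 3.11.15.

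Named genes are Irf4, the members, genes called in a list, up to 4 tested genes per list with the largest absolute log2 fold change, the 10 genes most like the members, and the 4 most abundant genes of a cell type list. Jam2, Pecam1, Esam, Nfkbia, Il6st, Il6ra, Osm, Il1a, Il1b, Il6, Tnf, Retnlg, Chil3, Mmp8, Mpo, Elane, Ngp, Camp, Ltf, Ly6c2 and Ptx3 were chosen after their values were seen. The GAS samples of the study were not analysed here.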

Additional observations from a re-analysis of the deposited data

Results flagged for a closer look

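In each group of 4 mice, the gap between the highest or lowest mouse and its nearest neighbor on the log2(value + 1) scale was divided by the range of the group and compared with Dixon's 95% critical value for 4 values. Of 50 such groups, 7 passed it, where chance gives about 1 in 20, and the members were chosen with MI4KO mouse 3 in view, so that share does not apply to them. In 5 of the 7 this concerned MI4KO mouse 3. It was highest for Selp at 15.7 (gap 0.853 of the range), for Sele at 0.864 (gap 1.0, from 13 reads), for S100a9 at 1.79 (gap 0.882) and for Lcn2 at 6.38 (gap 0.891). The gap of Sele would be 1.0 at any value above 0, because the other MI4KO mice had no read. The summed level of the 23 NF-kB pathway genes was 372.6 in MI4KO mouse 3 (gap 0.956 among MI4KO mice), and flox mice 3 and 4 were at 364.9 and 373.3. Icam1, Vcam1, S100a8, Il1r1, Osmr and Cebpb did not pass, although MI4KO mouse 3 was the highest mouse for each of them.

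The summed level of 21 chemokines was lowest in MI4KO mouse 1, at 131.95 (gap 0.907). The summed level of the liver markers was 232.4 in flox mouse 1 (gap 0.960). Lcn2 and Hp were also higher in that mouse than in the other flox mice, and the part of liver RNA in them was not tested.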

How the results depend on the processing

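No member with a p passed the limits of the fit under any of the 17 alternatives, and DESeq2 gave no p for Selp (log2 fold change 2.09) or Icam1 (1.30). The number of genes called, 26, went to 71 with a pseudocount of 0.1, 13 with robust limma, 66 with edgeR and 51 with DESeq2, and to between 19 and 58 with 1 mouse left out (58 without MI4KO mouse 4). The number at an adjusted p under 0.05 was 0 throughout, except for 1 gene without MI4KO mouse 2 (range 0 to 1). Of the list genes 1 was called (Cyp2e1), 3 with a pseudocount of 0.1, 0 with robust limma, 2 with the mouse number covariate, 5 with edgeR, 6 with DESeq2 and 1 to 5 with 1 mouse left out. Itgb2 was called with the pseudocount of 0.1, edgeR (log2 fold change 0.94), DESeq2 (0.96), and without flox mouse 1 or MI4KO mouse 4. The number of members with a ratio of means of at least 1.5 ranged from 0, without MI4KO mouse 3, to 7, without MI4KO mouse 1, and was 6 without any other mouse. The log2 fold change of Selp was 2.09 in edgeR (unadjusted p = 0.0608), 0.64 in limma and 0.74 in limma with a pseudocount of 0.1. The smallest unadjusted p of a member was 0.0327, for Osmr without MI4KO mouse 1. Il1r1 went from -0.12 to 0.04 on the log2 scale without MI4KO mouse 2. No paired analysis was possible because the labels give each mouse a number of its own that no mouse of the other group shares. Why these values moved was not tested. Depth limits Sele, S100a8 and S100a9, which rest on 16, 39 and 34 reads over all mice.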
